A study of Rattus norvegicus with 325 samples.

Results

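The genes described here encode the proteins of the mitochondrial ribosome in skeletal muscle of aging male Sprague Dawley rats. Members were chosen by symbol alone, as every gene whose symbol is Mrpl or Mrps followed by a number, which gave 69 of 17315 symbols, 41 with Mrpl and 28 with Mrps. The letters l and s stand for the large and the small subunit, but the symbols are not a strict guide, since the proteins of Mrps18a and Mrps30 sit in the large subunit and that of Mrps36 is not chiefly a ribosomal protein. They came from 73 of 17870 gene lines, since Mrpl1, Mrpl30, Mrpl36 and Mrpl53 each had 2 lines, which were summed. RNA was sequenced from the diaphragm, gastrocnemius, soleus and tibialis anterior of rats aged 27, 24, 21, 18, 12, 9 or 6 months, in 325 libraries with 9 to 13 in each group of 1 muscle and 1 age. All animals were males of 1 outbred strain, aged at the supplier and moved to the study's facility some weeks before collection, and the labels give no treatment and no engineered allele.

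The mitochondrial ribosome translates the few proteins that mitochondrial DNA still encodes, all of them core subunits of the respiratory chain complexes and of the ATP synthase. Its RNAs are made inside the organelle, whereas all of its proteins are encoded in the nucleus, made in the cytosol and imported. Many of these proteins descend from bacterial ribosomal proteins, and others were added later in evolution and have no bacterial counterpart. Muscle fibres depend on this machinery to maintain oxidative capacity, and slow fibres are in general richer in mitochondria than fast fibres.

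The libraries held 17555294 to 85316329 counts, of which the members took 0.193 to 0.294%. No 2 libraries of a group held identical counts, and the most similar of 1735 pairs differed by a chi-square of 8.91 per degree of freedom. The sources give 1 collection day per age group, and so age and day cannot be told apart. The numbers in the sample descriptions fall into 3 series, the first holding all gastrocnemius libraries, the third the 12-month libraries of the other muscles with 1 library each at 21 months, and so the comparison of 12 with 6 months in those muscles cannot be told apart from the series. Labels do not name the animal behind a library, so p-values measure the spread between libraries only, and comparisons between muscles treat libraries as separate. The labels of the soleus and tibialis anterior were checked with fibre genes. At 6 months the summed level of 4 slow-fibre genes ran from 51282 to 63805 CPM (counts scaled to a common library size) in the soleus and from 1379 to 3233 CPM in the tibialis anterior, and that of 4 fast-fibre genes from 31.8 to 609 CPM in the soleus and from 118370 to 133868 CPM in the tibialis anterior.

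To determine how the mitochondrial ribosomal protein genes changed over the studied ages, the 27-month libraries of each muscle were first compared with its 6-month libraries. In the 3 limb muscles most members were lower at 27 months relative to the general run of genes, and in the diaphragm they were not, although on total counts the median turned in the gastrocnemius and tibialis anterior, as given below. A gene was called when its Benjamini-Hochberg adjusted p in limma-voom, over all genes tested in that muscle, was under 0.05. In the gastrocnemius 48 of 69 members (69.6%) were called lower, against 28.9% of all genes, and 3 higher, against 33.2% of all genes. In the soleus 53 of 68 (77.9%) were called lower, against 26.4%, and 0 higher, against 27.4%. The number of soleus members higher was also 0 at an unadjusted p under 0.05 in limma and in edgeR and DESeq2. Of the 69 members in the tibialis anterior, 46 (66.7%) were called lower, against 36.5%, and 4 higher, against 37.7%. In the diaphragm 3 of 68 (4.41%) were called lower, against 24.7%, and 15 (22.1%) higher, against 20.3%, a share close to that of all genes. In bulk tissue, fewer cells of a type and less RNA per cell cannot be told apart.

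The typical limb muscle change was small. The median log2 change of the members from 6 to 27 months was -0.27 in the gastrocnemius, -0.26 in the soleus, -0.22 in the tibialis anterior and 0.03 in the diaphragm, beside a median over all genes tested of 0.04, 0.02, 0.02 and 0.00. Few members passed 1.5-fold. Those lower by more than 1.5-fold numbered 4 in the gastrocnemius, where 7.76% of all genes did so, 2 in the soleus (5.78%), 7 in the tibialis anterior (10.4%) and 0 in the diaphragm (4.25%), where edgeR and DESeq2 also gave 0. The shares among members were thus no higher than among all genes.

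The direction of these medians depended on how libraries were scaled. The values above use the trimmed mean of M values (TMM), which sets the typical gene to no change, and they therefore describe members relative to other genes. When counts were instead divided by the total of each library, the median member change was 0.01 in the gastrocnemius and 0.11 in the tibialis anterior, so the sign turned in both, and was -0.10 in the soleus and 0.07 in the diaphragm. Under that scaling the median of all genes was itself shifted to 0.32, 0.34, 0.16 and 0.04 in the same order. Measured against the median of all genes, the members lay 0.32 lower in the gastrocnemius under TMM and 0.31 lower under total counts in log2 units, 0.27 lower in the soleus under both, 0.23 lower in the tibialis anterior under both, and 0.03 higher in the diaphragm under both. On total counts the calls split as 11 lower and 20 higher in the gastrocnemius, 9 and 33 in the tibialis anterior, 33 and 3 in the soleus, and 3 and 26 in the diaphragm. Of all genes, 11.93% were then lower and 60.98% higher in the gastrocnemius, and 14.74% and 64.85% in the tibialis anterior. In the soleus these shares were 15.02% and 44.17%, and in the diaphragm 20.19% and 26.50%. Higher calls were thus rarer among members than among all genes in each limb muscle, and more frequent in the diaphragm. The share of a library's counts taken by its 10 most abundant genes moved with age, from a median of 27.8% at 6 months to 21.6% at 27 months in the gastrocnemius and from 28.1% to 21.6% in the tibialis anterior, while it was 19.9% and 17.1% in the soleus and 17.6% and 18.1% in the diaphragm. Its part in the result was not tested. All directions given below are under TMM unless total counts are named.

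**Figure D1:**
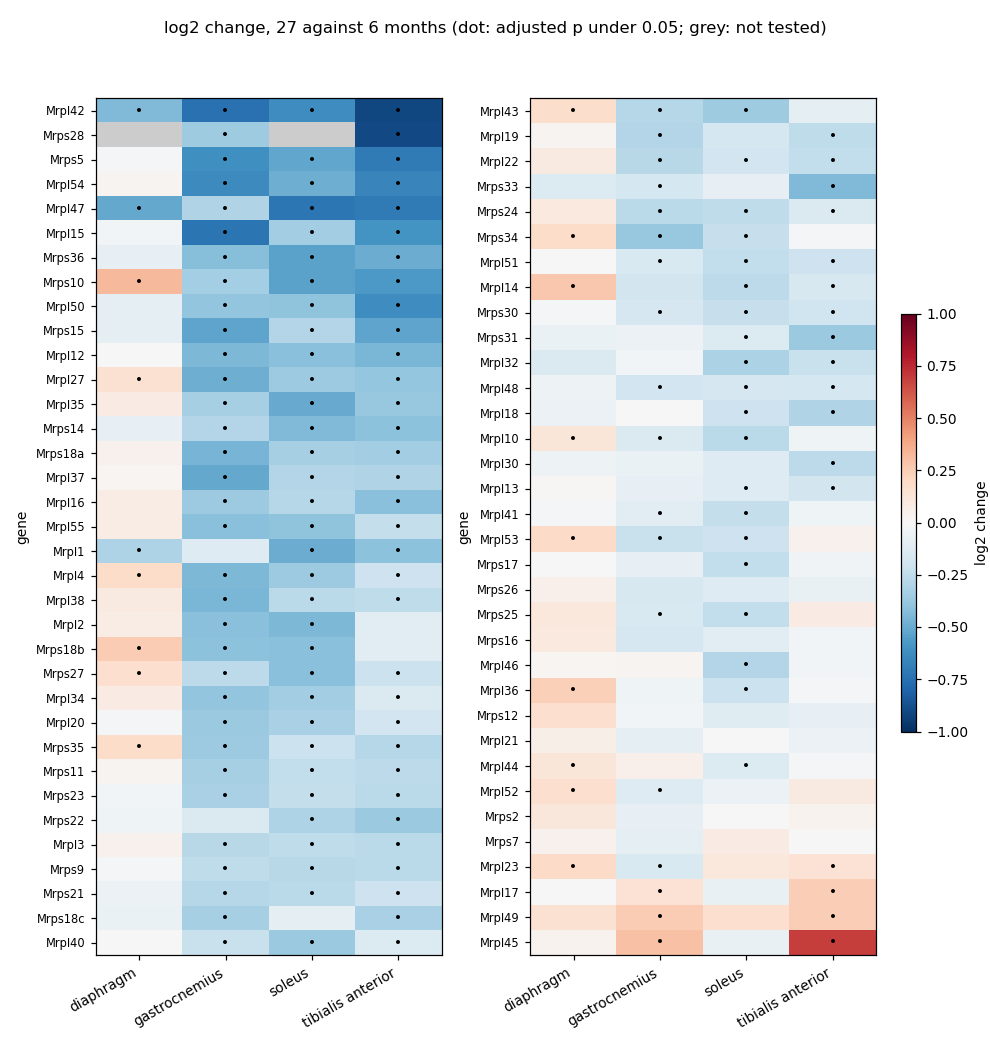
Heat map of the log2 change from 6 to 27 months under TMM for each of the 69 members (rows, ordered by the mean change in the 3 limb muscles) in the 4 muscles (columns), blue for lower and red for higher on a scale from -1 to 1, with a dot where the limma-voom adjusted p was under 0.05 and grey where a gene was not tested. Most dots in the limb muscles are on blue cells (48, 53 and 46 members) and in the diaphragm on red cells (15 members). On total counts the medians of the gastrocnemius and tibialis anterior turn to 0.01 and 0.11.

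Mrpl42 (a large subunit protein without a bacterial counterpart) had the largest fall in the gastrocnemius and tibialis anterior. Its tibialis anterior level had a lowest, median and highest value of 46.3, 51.7 and 58.7 CPM in the 12 libraries at 6 months, and of 18.9, 26.8 and 40.0 CPM in the 12 at 27 months. All old libraries were below all young ones. The change was -0.91 ± 0.08 (log2, SE) with an adjusted p of 8.41e-17 in limma-voom. In the gastrocnemius Mrpl42 had 35.7, 55.4 and 65.4 CPM at 6 months and 22.3, 32.0 and 40.9 CPM at 27 months, and a change of -0.74 ± 0.10 (limma adjusted p = 6.77e-10). Here the ranges overlapped, since the lowest young library was within the range of the old ones. The changes in the soleus and diaphragm were -0.62 ± 0.07 (limma adjusted p = 9.1e-13) and -0.44 ± 0.06 (limma adjusted p = 1.36e-08). Mrpl42 was lower in every muscle, and the call and direction held in all 4 on total counts, with changes of -0.58, -0.46, -0.46 and -0.40 in the tibialis anterior, gastrocnemius, soleus and diaphragm.

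Mrpl47, the counterpart of bacterial protein L29, was the other member lower in all 4 muscles. In the soleus it had 47.5, 53.0 and 64.2 CPM at 6 months and 21.5, 33.1 and 46.3 CPM at 27 months, with no overlap, and a change of -0.72 ± 0.09 (limma adjusted p = 8e-11), the largest fall of that muscle. Its change was -0.71 ± 0.11 in the tibialis anterior, -0.51 ± 0.10 in the diaphragm and -0.30 ± 0.12 in the gastrocnemius, the last with a limma adjusted p of 0.0218 and a value of -0.02 on total counts, no longer called. Both Mrpl42 and Mrpl47 have named copies or pseudogenes in the reference gene table, 3 and 2 of them, and reads could have been divided among near-identical copies. Of the 69 members, 24 have at least 1 such copy.

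Mrps5, the counterpart of bacterial S5 near the entrance of the mRNA channel, was called lower in each limb muscle, also on total counts, but the diaphragm gave no call. Its tibialis anterior level was 36.4, 40.2 and 45.1 CPM at 6 months and 16.5, 26.1 and 34.6 CPM at 27 months, without overlap, with a change of -0.71 ± 0.08 (limma adjusted p = 8.4e-12). In the gastrocnemius the change was -0.62 ± 0.10 and in the soleus -0.52 ± 0.08 (limma adjusted p = 2.41e-07 and 1.61e-08). The diaphragm had 27.0, 30.5 and 36.3 CPM at 6 months and 24.0, 31.2 and 36.0 CPM at 27 months, ranges that largely coincided, with a change of -0.01 ± 0.05 (limma adjusted p = 0.89).

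Other large falls were in proteins of both kinds of origin. In the gastrocnemius Mrpl15, the counterpart of bacterial L15, went from 64.2, 70.3 and 77.8 CPM to 37.3, 39.5 and 55.8 CPM, without overlap, a change of -0.73 ± 0.06 (limma adjusted p = 1.54e-16). Mrpl54, a large subunit protein with no bacterial counterpart, went from 70.6, 80.9 and 98.1 CPM to 41.0, 49.7 and 72.3 CPM there, where the highest old library reached into the young range, a change of -0.63 ± 0.08 (limma adjusted p = 6.48e-10). In the soleus Mrps36 changed by -0.54 ± 0.07 (limma adjusted p = 2.12e-09), although the protein is now known chiefly as a part of the 2-oxoglutarate dehydrogenase complex and not of the ribosome. Its soleus level was 104.0, 115.2 and 130.1 CPM at 6 months and 48.2, 79.9 and 123.3 CPM at 27 months, so the groups overlapped. Mrps10, the counterpart of bacterial S10, changed by -0.53 ± 0.16 in the soleus (limma adjusted p = 0.00391) at a low level, from 1.17, 1.70 and 2.49 CPM to 0.73, 1.21 and 1.99 CPM.

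Complete separation of the 2 ages was found for 4 members in the gastrocnemius (Mrpl15, Mrpl20, Mrpl34 and Mrps15, all old libraries below all young ones, as for 7.28% of all genes), for 3 in the soleus (Mrpl35, Mrpl47 and Mrps14, against 3.15%), and for 8 in the tibialis anterior (Mrpl18, Mrpl42, Mrpl50, Mrpl54, Mrps5, Mrps14, Mrps15 and Mrps33, against 10.3%). These shares were close to the background. Mrpl17 and Mrpl45 had in the tibialis anterior all old libraries above all young ones, as did 9.6% of all genes.

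Mrpl45, a protein at the exit of the ribosomal tunnel that helps hold the ribosome to the inner membrane, stood against the rest of the group. Its level in the tibialis anterior was 52.1, 56.9 and 60.3 CPM at 6 months and 79.8, 93.6 and 102.5 CPM at 27 months. The change was 0.69 ± 0.05 (limma adjusted p = 1.43e-19), the largest rise of any member in any muscle at this age. In the gastrocnemius it had 49.3, 50.8 and 59.7 CPM at 6 months and 51.6, 66.6 and 71.9 CPM at 27 months, ranges that overlapped in part, with a change of 0.29 ± 0.05 (limma adjusted p = 4.17e-06). The soleus and diaphragm values were -0.07 ± 0.05 and 0.03 ± 0.04, with limma adjusted p values of 0.232 and 0.52. The reference table lists 1 named copy of Mrpl45.

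Mrpl17, the counterpart of bacterial L17, rose by 0.25 ± 0.04 in the tibialis anterior (limma adjusted p = 3.13e-09), from 48.8, 51.7 and 53.5 CPM to 56.5, 61.1 and 66.6 CPM, and by 0.14 ± 0.05 in the gastrocnemius (limma adjusted p = 0.00457). Mrpl49 rose by 0.25 in both muscles, with limma adjusted p values of 0.0407 in the gastrocnemius and 0.00765 in the tibialis anterior, at a level whose medians were 4.75 and 2.45 CPM at 6 months. Mrpl23 rose in the tibialis anterior (0.14 ± 0.05, limma adjusted p = 0.012) and fell in the gastrocnemius (-0.16 ± 0.05, limma adjusted p = 0.0113), though it turned to 0.12 there on total counts. In the soleus the members with the highest changes, Mrpl49 (0.16 ± 0.15) and Mrpl23 (0.10 ± 0.06), did not pass the test.

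**Figure D2:**
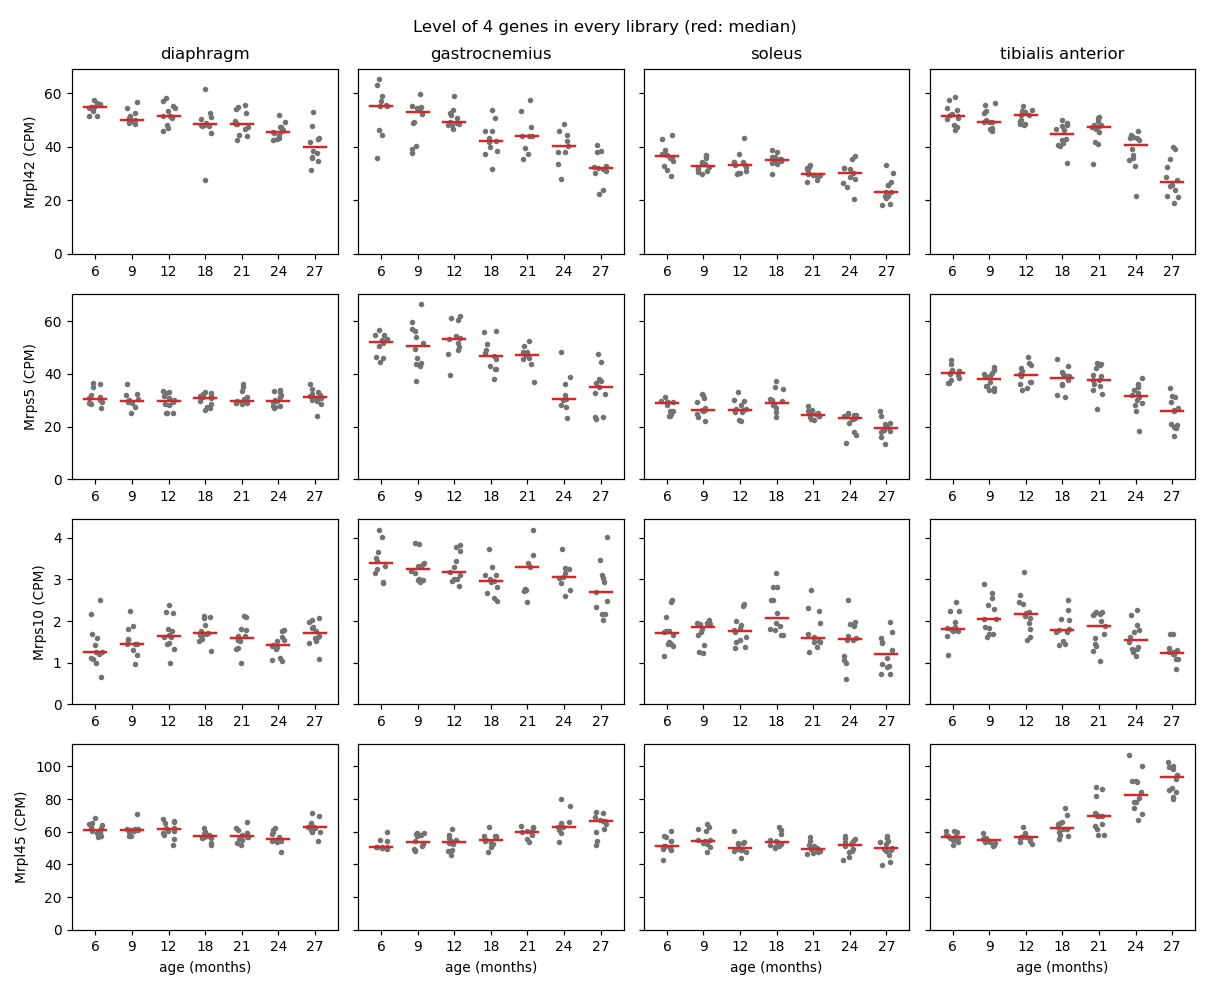
Level in CPM (vertical axes, from 0, TMM scaling within each muscle) of Mrpl42, Mrps5, Mrps10 and Mrpl45 in every library by age in months, with 1 grey point a library and a red line at the median of each group. Mrpl42 falls to a median of 26.8 CPM in the tibialis anterior at 27 months, while Mrpl45 rises there to 93.6 CPM, and Mrps10 is low throughout.

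In the diaphragm the 15 members called higher at 27 months were Mrpl4, Mrpl10, Mrpl14, Mrpl23, Mrpl27, Mrpl36, Mrpl43, Mrpl44, Mrpl52, Mrpl53, Mrps10, Mrps18b, Mrps27, Mrps34 and Mrps35. Each of them was also called lower in at least 1 limb muscle under TMM, a pattern of 15 of 69 members and of 6.03% of the 11517 genes tested in all 4 muscles. On total counts all 15 stayed higher in the diaphragm, but only 7 kept a lower call in a limb muscle (Mrpl4, Mrpl10, Mrpl27, Mrpl43, Mrps10, Mrps18b and Mrps27). Over all members, 12 of 69 (17.4%) had the pattern on total counts, beside 3.56% of the 11517 genes. The 2 largest changes were in Mrps10 and Mrpl14, the counterpart of bacterial L14. Mrps10 had 0.67, 1.26 and 2.50 CPM at 6 months and 1.08, 1.71 and 2.08 CPM at 27 months, a range within that of the young libraries, with a change of 0.33 ± 0.13 (limma adjusted p = 0.0288). It was not called by edgeR, DESeq2 or limma with library weights (adjusted p = 0.0877, 0.0657 and 0.0666). Mrpl14 had 12.7, 15.3 and 18.6 CPM at 6 months and 13.5, 18.2 and 21.6 CPM at 27 months, an overlapping but shifted range, with a change of 0.27 ± 0.07 (limma adjusted p = 0.000385). The remaining 13 changes ran from 0.12 to 0.25.

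The 3 members called lower in the diaphragm were Mrpl47, Mrpl42 and Mrpl1, the counterpart of bacterial L1. Mrpl1 had 43.1, 46.8 and 50.9 CPM at 6 months and 30.5, 35.4 and 51.9 CPM at 27 months, where the highest old library was above the young range, and changed by -0.31 ± 0.07 (limma adjusted p = 0.000338). Mrpl32, with the next lowest value, changed by -0.15 ± 0.06 and did not pass (limma adjusted p = 0.0506). Mrps11, nearest to the diaphragm median, had a change of 0.03 ± 0.05.

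The differences between muscles were tested directly, as the change from 6 to 27 months in one muscle minus the change in another, in a fit of all 325 libraries. Compared with the diaphragm, 51 of 69 members had a lower change in the gastrocnemius (26.6% of all genes) and 1 a higher change (25.1%). For the soleus the counts were 52 (20%) and 0 (16.1%), with 0 higher at an unadjusted p under 0.05 in limma; edgeR and DESeq2 were not run on the fit of all libraries. For the tibialis anterior they were 49 (24.8%) and 2 (23.4%). The median difference was -0.34, -0.34 and -0.29 in log2 units, and -0.05, -0.18 and 0.04 on total counts, where the medians of all genes were 0.30, 0.16 and 0.35. Between the soleus and the tibialis anterior 14 members had a lower change in the soleus (20.4%) and 7 a higher one (18.4%), with a median difference of -0.05. On total counts 40 had a lower change (35.1%), with a median difference of -0.21 beside -0.19 for all genes.

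The lowest differences between the tibialis anterior and the diaphragm were in 3 small subunit genes. Mrps28 had a difference of -1.64 ± 0.48 (limma adjusted p = 0.00247), but it was nearly absent, with a median of 3 counts a library in the young diaphragm and 9 in the young tibialis anterior, and so its log2 values depend on the prior count and on few reads. It passed the filter on low counts in the gastrocnemius and tibialis anterior and not in the diaphragm and soleus, where it was not tested within the muscle. Mrps10 had a difference of -0.94 ± 0.18 (limma adjusted p = 3.78e-06) and Mrps5 of -0.75 ± 0.11 (limma adjusted p = 2.96e-09). At the other end stood Mrpl45, with a difference of 0.61 ± 0.07 (limma adjusted p = 3.16e-14), and the same gene had the lowest difference of the soleus from the tibialis anterior, -0.77 ± 0.07 (limma adjusted p = 8.95e-21). These 2 differences of Mrpl45 were chosen after their values were seen.

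**Figure D3:**
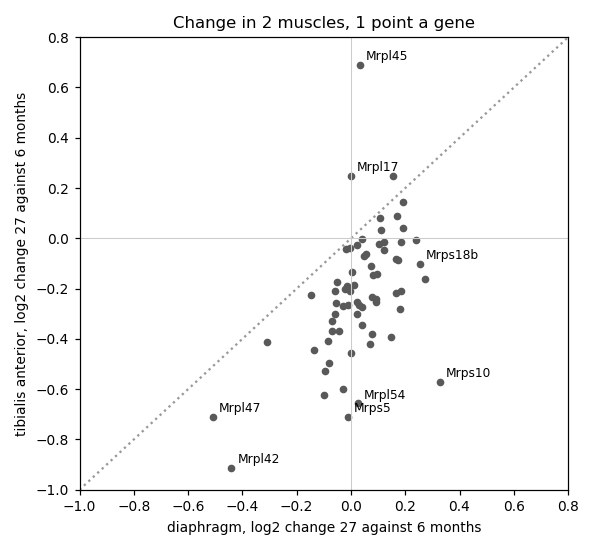
Log2 change from 6 to 27 months under TMM in the diaphragm (horizontal axis) against the tibialis anterior (vertical axis), 1 point for each of the 68 members tested in both, with a dotted line where both changes are equal. Most points are below the line, with Mrps5 at -0.01 and -0.71 and Mrps10 at 0.33 and -0.57, and Mrpl45 above it at 0.03 and 0.69. On total counts the median difference between these muscles turns from -0.29 to 0.04.

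Across the limb muscles, 34 members (49.3%) were called lower at 27 months in all 3, 19 (27.5%) in 2, 7 (10.1%) in 1 and 9 (13.0%) in none. Of the 11584 genes tested in these 3 muscles the shares were 13.2, 18.6, 16.1 and 52.1%. On total counts 5 members were lower in all 3, 10 in 2, 18 in 1 and 36 in none, beside 3.83, 8.77, 12.6 and 74.8% of those genes. The 9 called lower in none under TMM were Mrpl17, Mrpl21, Mrpl45, Mrpl49, Mrps2, Mrps7, Mrps12, Mrps16 and Mrps26. Mrpl23 was the only member called in opposite directions in 2 limb muscles, under TMM. By symbol, the tibialis anterior had 27 of 41 Mrpl genes and 19 of 28 Mrps genes lower, with medians of -0.21 and -0.27, which turned to 0.11 and 0.06 on total counts. The 42 members with a bacterial homologue had medians of -0.29, -0.27 and -0.24 in the gastrocnemius, soleus and tibialis anterior, and the 27 without one had -0.19, -0.24 and -0.20. No test was run between these groups of genes.

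The Mrps18 proteins are 3 related versions of bacterial S18, of which Mrps18b and Mrps18c belong to the small subunit and Mrps18a to the large one. Mrps18a fell by 0.46, 0.33 and 0.34 in the gastrocnemius, soleus and tibialis anterior, with limma adjusted p values from 5.93e-07 to 1.74e-08, while its diaphragm value was 0.04 (limma adjusted p = 0.49). Its tibialis anterior value was -0.02 on total counts. Mrps18b was higher in the diaphragm, at 82.0, 91.5 and 109.2 CPM at 6 months and 91.4, 111.2 and 124.3 CPM at 27 months (0.25 ± 0.06, limma adjusted p = 0.000385). In the soleus it went from 77.7, 94.3 and 104.0 CPM to 44.6, 72.2 and 97.0 CPM (-0.42 ± 0.07, limma adjusted p = 7.86e-07), and in both muscles the ages overlapped. Its gastrocnemius change was -0.41 ± 0.08 (limma adjusted p = 1.23e-05), no longer called on total counts (-0.13), and its tibialis anterior value of -0.10 ± 0.07 was not called and turned to a called 0.22 on total counts. Mrps18c was called lower in the gastrocnemius (-0.34 ± 0.06) and tibialis anterior (-0.33 ± 0.07), while its soleus and diaphragm values were -0.10 ± 0.07 and -0.07 ± 0.06, neither called. On total counts Mrps18c was called in no muscle, with -0.06 in the gastrocnemius and 0.0014 in the tibialis anterior.

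Members nearest to the median show the usual size of change. Mrps27 had in the tibialis anterior 11.7, 12.7 and 14.3 CPM at 6 months and 7.82, 11.4 and 14.0 CPM at 27 months, with the old range reaching further down, and a change of -0.22 ± 0.07 (limma adjusted p = 0.00297) that turned to 0.12 on total counts. In the gastrocnemius Mrps24 had 16.9, 19.8 and 27.6 CPM and then 13.0, 17.6 and 21.7 CPM, a change of -0.27 ± 0.09 (limma adjusted p = 0.00947) that was 0.01 on total counts. In the soleus Mrpl14 had 10.2, 13.0 and 15.9 CPM and then 7.59, 10.7 and 14.7 CPM, a change of -0.26 ± 0.08 (limma adjusted p = 0.00521). On total counts that change was -0.10 and no longer called (limma adjusted p = 0.23). Changes of this size were thus within the range of levels inside 1 group of libraries.

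To see when the change set in, each later age was compared with 6 months. Up to 12 months few members were called. At 9 months 1 diaphragm member was called lower (Mrpl41, against 0.424% of genes called in either direction), and 0 in the gastrocnemius (0.312%), soleus (0.559%) and tibialis anterior (0.00851%), where 4, 5 and 4 had an unadjusted p under 0.05 in limma and edgeR and DESeq2 called 0. At 12 months 3 were called in the diaphragm (3.51%) and 3 in the soleus (2.55%), in each 2 lower and 1 higher, and 0 in the gastrocnemius (2.24%) and tibialis anterior (0.706%), with 2 and 4 at an unadjusted p under 0.05 and 0 in edgeR and DESeq2. Mrps7 (counterpart of bacterial S7) was lower and Mrpl4 (of L4) higher in both muscles at 12 months, the age that cannot be told apart from the third number series.

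At 18 months the directions were mixed. The shares of all genes given for 18 and 21 months count calls in either direction. In the soleus 14 members were higher and 2 lower (26.1% of all genes called), in the tibialis anterior 9 higher and 8 lower (35.3%), in the diaphragm 6 higher and 5 lower (23.3%), and in the gastrocnemius 5 lower and 0 higher (13.3%), with 1 higher at an unadjusted p under 0.05 in limma and 0 in edgeR and DESeq2. The median soleus change at 18 months was 0.08, also 0.08 on total counts. At 21 months 11 were lower in the soleus (13.5% of all genes in either direction) and 4 lower and 2 higher in the gastrocnemius (18.7%). In the tibialis anterior 2 were lower and 4 higher (27%), and in the diaphragm 2 lower (8.83%). Mrpl45 was among the higher members of the gastrocnemius and tibialis anterior at 21 months.

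At 24 months the calls in the limb muscles were mostly lower. They numbered 39 lower and 3 higher in the gastrocnemius (27.9% and 29% of all genes), 30 and 0 in the soleus (16.1% and 14.6%), and 25 and 3 in the tibialis anterior (27.7% and 29.6%), where the 3 higher members were again Mrpl17, Mrpl45 and Mrpl49, as in the gastrocnemius. In the diaphragm 9 were lower and 0 higher (5.33% and 5.43%). No member of the soleus or diaphragm was higher at 24 months at an unadjusted p under 0.05, in edgeR or in DESeq2. The median member change at 24 months was -0.18 in the gastrocnemius, -0.15 in the soleus, -0.10 in the tibialis anterior and -0.05 in the diaphragm, and on total counts 0.09, -0.09, 0.09 and -0.01. On total counts 7 were lower and 25 higher in the gastrocnemius (10.8% and 55.4% of all genes) and 19 lower in the soleus (11.4%). In the tibialis anterior 5 were lower and 31 higher on total counts (10.4% and 53.9%). Without the tibialis anterior library with the lowest member level at that age, 18 members were lower and 5 higher there under TMM.

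The steps between the last ages were compared within each muscle. From 21 to 24 months 23 members of the gastrocnemius were lower (17.1% of all genes), 10 of the tibialis anterior (12%), 1 of the soleus (2.73%) and 0 of the diaphragm, where 0% of all genes were called lower and 5 members had an unadjusted p under 0.05 in limma, with 0 in edgeR and DESeq2. On total counts 7 were lower in the gastrocnemius (8.34% of all genes) and 4 in the tibialis anterior (4.25%), where the medians turned from -0.12 and -0.09 to 0.01 and 0.02. The tibialis anterior count fell to 3 without the library of lowest member level at 24 months. From 24 to 27 months, a comparison chosen after its values were seen, 34 members of the tibialis anterior (25.2%), 19 of the soleus (17.6%) and 2 of the gastrocnemius (1.99%) were lower. In the diaphragm 3 were lower (20.6%) and 27 higher (16.2%) in that step, with a median of 0.10 under both scalings. On total counts the limb muscle counts of that step were 10, 12 and 0 lower in the tibialis anterior, soleus and gastrocnemius, beside 11.4, 9.77 and 0.792% of all genes. Without the tibialis anterior library named above 44 members were lower in that muscle under TMM. The differences between the steps of different muscles were not tested.

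**Figure D4:**
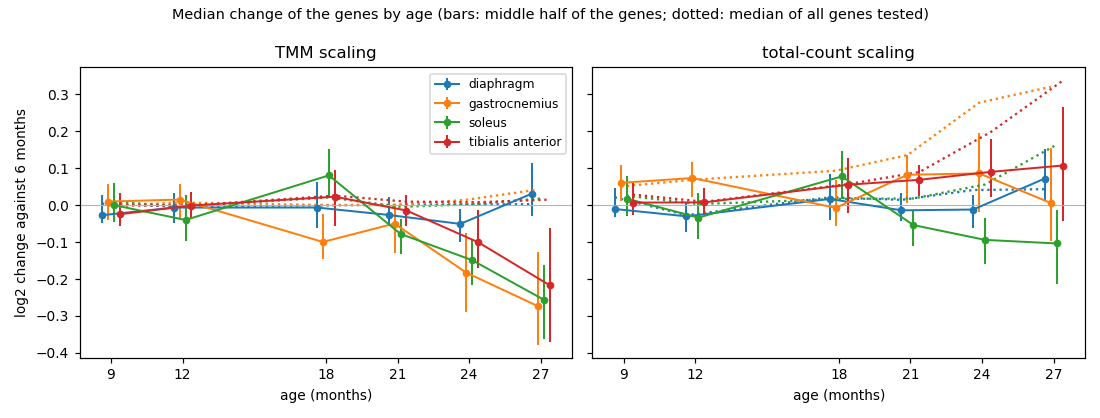
Median log2 change against 6 months (vertical axis) of the members by age in months (horizontal axis) in the 4 muscles, under TMM (left) and total-count scaling (right), with bars from the lower to the upper quartile of the members and dotted lines for the median of all genes tested. Under TMM the limb muscle medians reach -0.27, -0.26 and -0.22 at 27 months. On total counts those of the gastrocnemius and tibialis anterior are 0.01 and 0.11 while the medians of all genes are 0.32 and 0.34.

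Single members followed different courses in the tibialis anterior. The median level of Mrpl42 was 51.7, 49.3, 51.9, 44.8, 47.5, 40.8 and 26.8 CPM from 6 to 27 months, and the gene was called lower at 18, 24 and 27 months. That of Mrpl45 was 56.9, 54.8, 56.7, 62.4, 69.5, 82.5 and 93.6 CPM, called higher from 18 months on. Mrps5 changed by -0.10, -0.40 and -0.71 at 21, 24 and 27 months, called at 24 and 27 months.

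The spread between old libraries was wide in the limb muscles. The mean log2 CPM over the 69 members had a standard deviation (SD) of 0.03 at 6 months and 0.15 at 27 months in the gastrocnemius, of 0.04 and 0.13 in the soleus, of 0.05 and 0.16 in the tibialis anterior, and of 0.05 and 0.07 in the diaphragm. Tibialis anterior means ran from 4.48 to 4.63 at 6 months and from 4.10 to 4.50 at 27 months, and so the highest old library was within the young range. At 24 months 1 tibialis anterior library stood at 4.02, below all others of that muscle. Of the 68 members other than Mrps28, 61 had a larger SD at 27 than at 6 months in the soleus, 61 in the tibialis anterior, 54 in the diaphragm and 49 in the gastrocnemius. The share of all genes with a larger SD at 27 months is not given. Without that share, the values given do not tell a trait of the members from one of the old libraries in general. These spreads are given as a description, and no test of them was run.

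**Figure D5:**
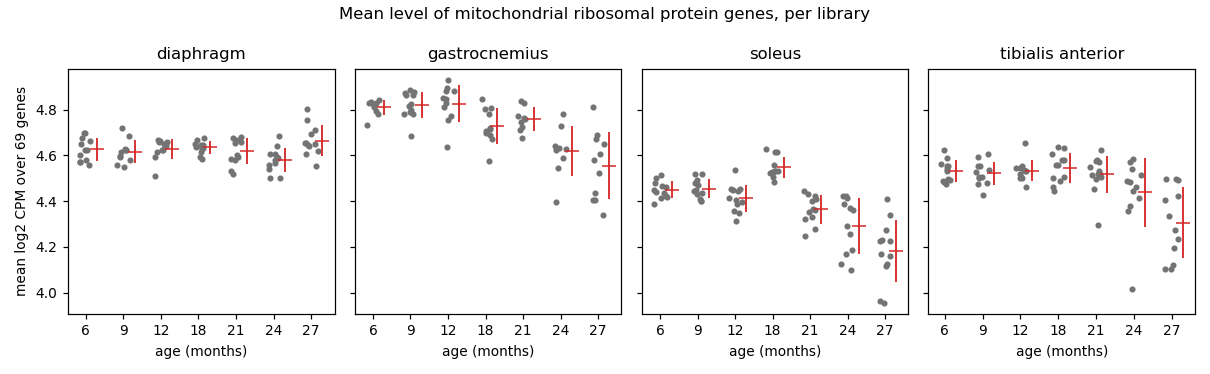
Mean log2 CPM over the 69 members (vertical axis, TMM scaling within each muscle) in every library by age in months (horizontal axis), with grey points for libraries and a red mark and bar for the mean and SD of a group. Tibialis anterior libraries run from 4.48 to 4.63 at 6 months and from 4.10 to 4.50 at 27 months. Levels are relative to other genes, and the median member change of the gastrocnemius and tibialis anterior turns to 0.01 and 0.11 on total counts.

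The young muscles were also compared with each other, here on levels scaled together across all libraries. At 6 months 56 of 69 members were lower in the soleus than in the tibialis anterior (37.1% of all genes) and 4 higher (38.9%), with a median log2 difference of -0.41. This difference was -0.0022 on total counts, where 27 were lower (18.7%) and 25 higher (61.1%) and the median of all genes was 0.45. The diaphragm had 42 members lower (37.1%) and 3 higher (35.9%) than the tibialis anterior, with a median of -0.23. On total counts the median turned to 0.21, with 13 lower (11.5%) and 43 higher (65.8%), and the median of all genes was 0.45. Compared with the soleus, the diaphragm had 40 members higher (31.7%) and 9 lower (29.8%), with a median of 0.19, and 0.22 on total counts. In the gastrocnemius 39 members were higher (27.2%) and 16 lower (26.3%) than in the tibialis anterior, with medians of 0.19 and 0.20 under the 2 scalings, but the gastrocnemius and its number series cannot be told apart.

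Mrpl52 was the member most in excess in the soleus, with 34.8, 38.2 and 49.8 CPM there and 22.1, 23.9 and 27.2 CPM in the tibialis anterior, without overlap, and a difference of 0.71 ± 0.06 (limma adjusted p = 3.9e-27). Mrps26 followed with 0.43 ± 0.06 and Mrpl1 with 0.20 ± 0.07 (limma adjusted p = 1.6e-10 and 0.00718). At the low end Mrpl21, the counterpart of bacterial L21, had 2.91, 4.07 and 5.62 CPM in the soleus and 8.64, 9.63 and 10.9 CPM in the tibialis anterior, a difference of -1.23 ± 0.09 (limma adjusted p = 3.35e-34). Mrps15, of bacterial S15, had 35.9, 40.4 and 42.6 CPM in the soleus, 55.9, 60.5 and 67.1 CPM in the diaphragm, 85.1, 90.1 and 94.9 CPM in the tibialis anterior and 87.5, 96.0 and 101 CPM in the gastrocnemius. From soleus to diaphragm to tibialis anterior the ranges were thus without overlap, whereas those of the tibialis anterior and gastrocnemius overlapped, and the soleus differed from the tibialis anterior by -1.18 ± 0.05 (limma adjusted p = 1.36e-67). Mrps28 differed by -1.21 ± 0.32 (limma adjusted p = 0.000357) at the low counts given above.

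The files write 3 more genes of the family with a lower-case symbol, and these are outside the rule. Here mrpl9, mrpl11 and mrpl24 were lower at 27 months in the gastrocnemius and tibialis anterior, and mrpl11 and mrpl24 in the soleus, with changes from -0.24 to -0.56, while on total counts 1, 0 and 2 of them stayed called lower in the gastrocnemius, tibialis anterior and soleus. In the diaphragm mrpl9 was higher (0.16 ± 0.05) and mrpl24 lower (-0.17 ± 0.05). The genes Mrpl28, Mrpl33, Mrpl39, Mrpl58 and Mrps6 were not analysed here. Of 6 further ribosomal proteins with other names, 3 were lower in each limb muscle and 0 in the diaphragm. In the gastrocnemius, tibialis anterior and diaphragm 1 was higher, and in the soleus 0. Of all genes, 28.9, 26.4, 36.5 and 24.7% were lower in the gastrocnemius, soleus, tibialis anterior and diaphragm under TMM. In the same order 33.2, 27.4, 37.7 and 20.3% were higher. Chchd1 was lower by 0.39, 0.21 and 0.48 in the gastrocnemius, soleus and tibialis anterior, and Dap3, a GTP-binding small subunit protein, was higher in the gastrocnemius (0.25) and tibialis anterior (0.28).

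Other genes of mitochondrial translation were described from lists. The counts at 27 months of these lists, and of the gene families and cell markers below, stand beside the shares over all genes tested. These shares were 28.9, 26.4 and 36.5% lower and 33.2, 27.4 and 37.7% higher in the gastrocnemius, soleus and tibialis anterior. In the diaphragm they were 24.7% lower and 20.3% higher. Of 11 translation factors tested, 6, 7 and 9 were lower in the gastrocnemius, soleus and tibialis anterior and 1, 2 and 1 higher, with medians of -0.18, -0.27 and -0.27 that became 0.10, -0.12 and 0.06 on total counts. In the diaphragm 2 were lower and 4 higher. Tufm, the elongation factor that brings aminoacyl-tRNA, fell by 0.36, 0.17 and 0.18 in those limb muscles and rose by 0.16 in the diaphragm. Mtfmt, which formylates the initiator methionine, rose in all 4 muscles, by 0.63 ± 0.05 in the tibialis anterior, where it had 6.57, 7.56 and 8.08 CPM at 6 months and 10.1, 11.1 and 13.2 CPM at 27 months without overlap.

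Of 21 assembly factors tested, 13, 14 and 13 were lower in the gastrocnemius, soleus and tibialis anterior and 1, 0 and 2 higher, with medians of -0.21, -0.22 and -0.18 that became 0.07, -0.07 and 0.16 on total counts, and in the diaphragm 4 were lower and 5 higher. Ybey, an endonuclease of ribosomal RNA processing, was lower in all 4 muscles, with changes of -1.21 ± 0.10, -0.87 ± 0.12 and -1.28 ± 0.13 in the limb muscles and -0.17 ± 0.06 in the diaphragm. Its tibialis anterior level went from 10.3, 11.5 and 13.5 CPM to 2.68, 5.42 and 8.47 CPM, without overlap. Fastkd2, an RNA-binding protein of large subunit assembly, was lower in all 4 muscles, by 0.23 to 0.49.

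Of 12 regulators of mitochondrial transcription and biogenesis, 6, 7 and 7 were lower in the limb muscles in the same order and 2, 1 and 2 higher, with medians of -0.18, -0.16 and -0.15 that became 0.10, -0.01 and 0.18 on total counts. The diaphragm had 3 lower and 3 higher. Esrra, a nuclear receptor that acts with Ppargc1a on genes of oxidative metabolism, was lower by 0.79, 0.82 and 0.64 in the limb muscles and had a diaphragm change of -0.14 ± 0.07 (limma adjusted p = 0.12). Myc, a transcription factor of growth, was higher in all 4 muscles, by 2.14 in the gastrocnemius and 0.48 in the diaphragm.

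For comparison, 31, 33 and 33 of 35 complex I genes (Nduf) were lower in the gastrocnemius, soleus and tibialis anterior, with medians of -0.55, -0.48 and -0.46, and -0.27, -0.33 and -0.14 on total counts, and in the diaphragm 4 were lower and 5 higher, with a median of 0.02. Genes of the cytosolic ribosome moved the other way in the limb muscles under TMM. Of 75 Rpl and Rps genes tested, 47, 52 and 55 were higher in those limb muscles and 46 in the diaphragm, with medians from 0.14 to 0.21 in the 4 muscles, and from 0.18 to 0.53 on total counts. Many Rpl and Rps genes have near-identical copies, and their counts are uncertain for that reason.

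Markers of other cell types moved along with age in the same libraries, on lists of 2 to 5 genes. All 5 macrophage genes were higher in each limb muscle and 3 of 5 in the diaphragm. Their summed level ran from 29.9 to 46.9 CPM at 6 months and from 64.0 to 124.6 CPM at 27 months in the tibialis anterior, and from 100.9 to 173.7 and from 146.9 to 224.9 CPM in the diaphragm. All 4 adipocyte genes were higher in each limb muscle and 0 of 4 in the diaphragm, with 5.01 to 21.8 and 28.1 to 45.1 CPM in the tibialis anterior and 31.9 to 453.7 and 63.1 to 265.8 CPM in the diaphragm. In the soleus the adipocyte sum ran from 31.7 to 166 and from 157 to 427 CPM. The part of either in the members' change was not tested.

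The muscle genes themselves changed as well. Both tested genes of the general fibre list, Acta1 and Ckm, were lower in the 3 limb muscles, and 1 of 2 was higher in the diaphragm. The fast-fibre sum of the tibialis anterior ran from 118370 to 133868 CPM at 6 months and from 39873 to 117778 CPM at 27 months, with 3 of 4 genes lower, as in the gastrocnemius, while in the soleus 4 of 4 were higher and in the diaphragm 1 was lower and 2 higher. Slow-fibre genes were lower in the soleus (4 of 4) and tibialis anterior (2 of 4), and higher in the diaphragm (3 of 4), with 0 of 4 called in the gastrocnemius in limma under TMM. Endothelial genes were lower in 4, 1 and 3 of 4 in the gastrocnemius, soleus and tibialis anterior and in 3 of 4 in the diaphragm. The 4 fibroblast genes were all lower in the diaphragm, while 1 was lower and 2 higher in each limb muscle. Satellite cell genes were higher in 1, 1 and 2 of 2 in the limb muscles in the same order, Schwann cell genes in 1, 1 and 3 of 4, with 1 lower in the gastrocnemius, and T cell genes in 1, 1 and 2 of the 2 tested. In the diaphragm 1 of 3 T cell genes was higher, and no Schwann, satellite or red cell gene was called. Of the 3 red cell genes 0 were called in any muscle in limma under TMM. The T cell genes Cd3d and Cd3e were at 0 counts in some libraries of each muscle. The part of these shifts in the members' change was not tested.

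The promoters of members were read from RefSeq, on the rat assembly GRCr8, which is later than the one the counts were made on, and 54 of the 69 members had an entry around the start of the gene. Motifs were searched on both strands with overlapping matches allowed, and the motif of ETS-family factors such as GABP was CCGGAAG, that of NRF1 GCGCNNGCG, that of YY1 AANATGGCG, and the CCAAT box CCAAT. The ETS motif was in 33.3% of member promoters and in 9.22% of all 27457 promoters of the same length. The NRF1 motif was in 33.3% and 11.9%, the YY1 motif in 22.2% and 3.33%, and the CCAAT box in 44.4% and 37.7%. At least 1 of the first 3 was in 37 of 54 member promoters (68.5%), and in 20.9% of all promoters. It was in 20 of the 27 promoters of members lower in all 3 limb muscles and in 17 of the other 27. These matches are a description of the sequence, and the data hold no measure of binding.

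The promoters of 4 members are shown because these genes carry the contrasts above, namely the fall in all muscles (Mrpl42), the fall called in the limb muscles and not in the diaphragm (Mrps5), the opposite directions in the limb muscles and diaphragm (Mrps10) and the rise (Mrpl45). The diaphragm rise of Mrps10 was at a low level and was not called by edgeR, DESeq2 or limma with library weights. Capitals mark matches to the ETS, NRF1 or YY1 motif.
Mrpl42 (chr7:32028473-32028772, strand minus): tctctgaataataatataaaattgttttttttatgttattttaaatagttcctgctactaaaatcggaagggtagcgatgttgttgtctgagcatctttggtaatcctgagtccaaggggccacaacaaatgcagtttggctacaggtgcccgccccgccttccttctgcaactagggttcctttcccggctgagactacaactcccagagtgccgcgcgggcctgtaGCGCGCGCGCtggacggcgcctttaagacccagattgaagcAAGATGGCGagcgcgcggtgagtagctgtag
Mrps5 (chr3:135274083-135274382, strand plus): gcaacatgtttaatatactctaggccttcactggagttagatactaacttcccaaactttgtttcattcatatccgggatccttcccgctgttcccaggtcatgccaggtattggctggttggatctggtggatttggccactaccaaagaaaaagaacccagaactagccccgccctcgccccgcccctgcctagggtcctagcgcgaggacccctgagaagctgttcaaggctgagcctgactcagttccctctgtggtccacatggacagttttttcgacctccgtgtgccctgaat
Mrps10 (chr9:21122404-21122703, strand minus): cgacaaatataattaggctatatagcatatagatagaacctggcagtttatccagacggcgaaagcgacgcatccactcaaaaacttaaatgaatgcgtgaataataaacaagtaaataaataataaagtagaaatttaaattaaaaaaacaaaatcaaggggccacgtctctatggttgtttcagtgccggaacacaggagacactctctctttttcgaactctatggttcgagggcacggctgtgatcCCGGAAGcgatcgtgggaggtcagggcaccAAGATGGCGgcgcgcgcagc
Mrpl45 (chr10:82804789-82805088, strand plus): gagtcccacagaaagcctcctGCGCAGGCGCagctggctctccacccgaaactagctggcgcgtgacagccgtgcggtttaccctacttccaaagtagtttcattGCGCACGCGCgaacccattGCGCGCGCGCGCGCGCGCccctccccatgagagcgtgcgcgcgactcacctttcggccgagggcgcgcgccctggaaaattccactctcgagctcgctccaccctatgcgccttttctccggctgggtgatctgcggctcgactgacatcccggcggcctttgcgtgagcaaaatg
Mrpl42 had 2 overlapping NRF1 matches and 1 YY1 match, Mrps10 1 ETS and 1 YY1 match, and Mrpl45 14 NRF1 matches, most of them overlapping in 1 run. No match to these 3 motifs was in the Mrps5 window, which says only that these letters are not there.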

How the data were processed

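Muscle RNA of male rats was sequenced from ribosomal-RNA-depleted, strand-specific libraries. The authors deposited raw counts per gene, made with the ArrayStudio pipeline on a rat genome reference (B6.0) with an in-house RefSeq-based gene model (pipeline version not given in the sources used here). Lines of 1 symbol were summed. Groups came from the labels for muscle and age.

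Each muscle was fitted with limma-voom 3.58.1 (edgeR 4.0.16, R 4.3.3) over all ages, with TMM scaling and filterByExpr at a minimum count of 10 and a minimum total of 15, and all libraries were fitted together for differences between muscles. Tests were two-sided, and a call is a Benjamini-Hochberg adjusted p under 0.05 over all genes tested. CPM levels used TMM within a muscle, except between muscles, and log2 CPM a prior count of 0.5. Fits were tested on simulated data first. Alternatives were other scalings, no filter, edgeR, DESeq2 1.42.0, library weights, a replicate block and Bonferroni adjustment.

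Members and lists were chosen with earlier results of these data known. Genes named were, per muscle, the 4 largest falls, 2 largest rises and the member nearest the median at 27 months, the 3 highest and 3 lowest between soleus and tibialis anterior, the 3 lowest differences between tibialis anterior and diaphragm, the Mrps18 genes and members called in opposite directions. Libraries of different muscles may share animals, which the fits ignore. Depth limits the precision of low genes.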

Additional observations from a re-analysis of the deposited data

Results flagged for a closer look

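Single libraries stood apart from their group in 3 of 75 tests made on groups of up to 10 libraries. Only the gastrocnemius had groups that small, so no other muscle could be flagged. Such a gap test flags about 1 in 20 groups by chance. Mrpl23 at 6 months had a log2 CPM of 5.10 in replicate 4 against 4.88 in the nearest other library. Mrps5 at 21 months had 5.20 in replicate 7, below the nearest value of 5.46, and Mrps27 at 24 months had 2.79 in replicate 7 against 3.25.

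The change from 6 to 27 months differed between muscles by the interaction test for 52 members between gastrocnemius and diaphragm, 52 between soleus and diaphragm, 51 between tibialis anterior and diaphragm, and 21 between soleus and tibialis anterior (limma, adjusted p under 0.05, TMM scaling). Of all genes, 26.6, 20, 24.8 and 20.4% had a lower change in the same order, and 25.1, 16.1, 23.4 and 18.4% a higher one. Between soleus and tibialis anterior the member shares were 20.3% lower and 10.1% higher, no more than among all genes. The 3 members with the lowest change in the tibialis anterior relative to the diaphragm were Mrps28 (-1.64), Mrps10 (-0.94) and Mrps5 (-0.75), in log2 units. Mrps28 had a median of 3 and 5 counts a library in the diaphragm and 9 and 5 in the tibialis anterior at 6 and 27 months, did not pass the filter within the diaphragm, and entered the fit of all libraries with a median of 47 counts in the young gastrocnemius, and so its value rests on few reads.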

How the results depend on the processing

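Counts of members passing the test were recomputed under other scalings, filters, tools, library weights, the replicate block and a Bonferroni threshold. Those that moved by over 1.5 times from the value reported are given with the new count first, and the cause was not tested except where the alternative itself lowers the count (Bonferroni). Shares over all genes moved as well on total counts, as given above for 27 months and for some other comparisons. For the change in the gastrocnemius minus that in the diaphragm they were 10.1% lower and 44.7% higher on total counts. For the tibialis anterior minus the diaphragm they were 7.93% and 52.5%. Under total-count scaling, in the diaphragm, the counts were 26 (from 15) higher at 27 months, 3 (from 9) lower at 24 months, 5 (from 3) changed at 12 months and 0 (from 2) changed at 21 months. In the gastrocnemius they were 11 (from 48) lower at 27 months, 20 (from 3) higher at 27 months, 7 (from 39) lower at 24 months, 25 (from 3) higher at 24 months, 0 (from 4) lower by over 1.5-fold at 27 months, 1 (from 0) changed at 12 months, 7 (from 23) lower from 21 to 24 months and 0 (from 2) lower from 24 to 27 months. In the soleus they were 33 (from 53) lower at 27 months, 3 (from 0) higher at 27 months, 19 (from 30) lower at 24 months, 0 (from 2) lower by over 1.5-fold at 27 months and 12 (from 19) lower from 24 to 27 months. For the tibialis anterior they were 9 (from 46) lower at 27 months, 33 (from 4) higher at 27 months, 5 (from 25) lower at 24 months, 31 (from 3) higher at 24 months, 0 (from 7) lower by over 1.5-fold at 27 months, 13 (from 6) changed at 21 months, 4 (from 10) lower from 21 to 24 months and 10 (from 34) lower from 24 to 27 months. Between muscles at 6 months or in the change to 27 months they were 25 (from 4) higher in soleus than in tibialis anterior at 6 months, 27 (from 56) lower in soleus than in tibialis anterior at 6 months, 43 (from 3) higher in diaphragm than in tibialis anterior at 6 months, 13 (from 42) lower in diaphragm than in tibialis anterior at 6 months, 21 (from 51) lower change in gastrocnemius than in diaphragm, 12 (from 1) higher change in gastrocnemius than in diaphragm, 11 (from 49) lower change in tibialis anterior than in diaphragm, 15 (from 2) higher change in tibialis anterior than in diaphragm, 40 (from 14) lower change in soleus than in tibialis anterior and 0 (from 7) higher change in soleus than in tibialis anterior. With limma sample quality weights, in the diaphragm, the counts were 8 (from 3) lower at 27 months, 17 (from 9) lower at 24 months, 1 (from 0) lower by over 1.5-fold at 27 months, 2 (from 1) changed at 9 months, 9 (from 3) changed at 12 months and 5 (from 2) changed at 21 months. In the gastrocnemius they were 2 (from 4) lower by over 1.5-fold at 27 months, 1 (from 0) changed at 9 months, 1 (from 0) changed at 12 months, 16 (from 5) changed at 18 months and 9 (from 2) lower from 24 to 27 months. In the soleus they were 1 (from 0) changed at 9 months, 7 (from 3) changed at 12 months, 0 (from 1) lower from 21 to 24 months and 33 (from 19) lower from 24 to 27 months. For the tibialis anterior they were 6 (from 3) higher at 24 months, 2 (from 0) changed at 12 months and 13 (from 6) changed at 21 months. At a Bonferroni adjusted p under 0.05, in the diaphragm, the counts were 0 (from 15) higher at 27 months, 0 (from 9) lower at 24 months, 0 (from 1) changed at 9 months, 0 (from 3) changed at 12 months, 0 (from 11) changed at 18 months, 0 (from 2) changed at 21 months, 0 (from 3) lower from 24 to 27 months and 2 (from 27) higher from 24 to 27 months. In the gastrocnemius they were 20 (from 48) lower at 27 months, 1 (from 3) higher at 27 months, 6 (from 39) lower at 24 months, 1 (from 3) higher at 24 months, 0 (from 5) changed at 18 months, 0 (from 6) changed at 21 months, 1 (from 23) lower from 21 to 24 months and 0 (from 2) lower from 24 to 27 months. In the soleus they were 26 (from 53) lower at 27 months, 1 (from 30) lower at 24 months, 0 (from 3) changed at 12 months, 1 (from 16) changed at 18 months, 0 (from 11) changed at 21 months, 0 (from 1) lower from 21 to 24 months and 8 (from 19) lower from 24 to 27 months. For the tibialis anterior they were 24 (from 46) lower at 27 months, 2 (from 4) higher at 27 months, 4 (from 25) lower at 24 months, 0 (from 17) changed at 18 months, 1 (from 6) changed at 21 months, 0 (from 10) lower from 21 to 24 months and 5 (from 34) lower from 24 to 27 months. Between muscles at 6 months or in the change to 27 months they were 2 (from 4) higher in soleus than in tibialis anterior at 6 months, 1 (from 3) higher in diaphragm than in tibialis anterior at 6 months, 18 (from 40) higher in diaphragm than in soleus at 6 months, 1 (from 9) lower in diaphragm than in soleus at 6 months, 8 (from 16) lower in gastrocnemius than in tibialis anterior at 6 months, 22 (from 51) lower change in gastrocnemius than in diaphragm, 0 (from 1) higher change in gastrocnemius than in diaphragm, 22 (from 52) lower change in soleus than in diaphragm, 17 (from 49) lower change in tibialis anterior than in diaphragm, 1 (from 2) higher change in tibialis anterior than in diaphragm, 2 (from 14) lower change in soleus than in tibialis anterior and 0 (from 7) higher change in soleus than in tibialis anterior. With the size factors of DESeq2 (RLE) in limma, in the diaphragm, the count was 1 (from 2) changed at 21 months. Between muscles at 6 months or in the change to 27 months it was 5 (from 3) higher in diaphragm than in tibialis anterior at 6 months. Without the filter on low counts, in the diaphragm, the count was 1 (from 2) changed at 21 months. In the gastrocnemius it was 1 (from 2) lower from 24 to 27 months. In DESeq2, in the diaphragm, the counts were 5 (from 3) changed at 12 months, 7 (from 11) changed at 18 months and 1 (from 2) changed at 21 months. In the soleus it was 2 (from 1) lower from 21 to 24 months. In edgeR, in the soleus, the count was 2 (from 1) lower from 21 to 24 months. With the replicate number as a block, in the gastrocnemius, the count was 1 (from 2) lower from 24 to 27 months. For the tibialis anterior it was 10 (from 6) changed at 21 months. Without the tibialis anterior library of lowest member level at 24 months, for the tibialis anterior, the counts were 5 (from 3) higher at 24 months and 3 (from 10) lower from 21 to 24 months.

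Of the 90 pairs of a gene and a muscle that the naming rule gave at 27 months, 71 of them called, 22 changed sign on total counts, with the log2 change there in parentheses. In the gastrocnemius these were Mrps24 (0.0059), Mrpl10 (0.14), Mrpl14 (0.098), Mrpl23 (0.12), Mrpl36 (0.23), Mrpl52 (0.15), Mrpl53 (0.06) and Mrps27 (0.019). In the soleus these were Mrps18c (0.051), Mrpl44 (0.013) and Mrpl52 (0.088). In the tibialis anterior these were Mrps27 (0.12), Mrps18b (0.22), Mrps18c (0.0014), Mrpl10 (0.28), Mrpl14 (0.17), Mrpl36 (0.32), Mrpl4 (0.11), Mrpl43 (0.24), Mrpl44 (0.31), Mrps34 (0.31) and Mrps35 (0.044). Of these, 12 had been called under TMM, and 5 of the 12 were then called in the other direction. With the replicate block Mrpl36 in the tibialis anterior, not called, turned to 0.0010. Of the other gene, muscle and setting combinations 623 kept direction and side of the threshold, 67 lost and 7 gained the call. Of the counts of members, 342 stayed within 1.5 times and 108 did not. The labels do not say that a replicate number marks one animal. Libraries of 2 muscles with the same number had mean correlations of their deviations of 0.06 to 0.18 against -0.016 to -0.0048 for other numbers, and correlated best with their own number in 13 of 72 to 43 of 84 pairs, where unrelated numbers would give about 6.03 to 6.92. This is a hint from the data that some numbers may mark shared animals. Since no label says so and some pairs were negative, the numbers were not taken as pairs. Within a muscle the block joined equal numbers of different ages, which came from different animals, and so it cannot bear on shared animals. In the fit of all libraries it joined equal numbers of the same age across muscles. The block moved no count by over 1.5 times beyond those given. Leaving out the third-series libraries at 21 months gave 2, 10 and 9 members changed in the diaphragm, soleus and tibialis anterior at that age. No group had 5 or fewer libraries, and apart from these and the tibialis anterior library at 24 months no library was left out. Few reads limit Mrps28 and, less so, Mrps10 and Mrpl49.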
